A study of Mus musculus with 16 samples.

Results

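The acetylation mark H3K27ac was described at Cdk6 from the authors' 4 lists of differing regions, each comparing a pair of cell types. Every listed region that overlaps the window given for the gene, chromosome 5 from 3340000 to 3535000 (mm9), was taken. This gave 156 regions of the 273958 in the 4 lists. The list of multipotent progenitors (MPP) and common dendritic cell progenitors (CDP) held 54 of them. The list of CDP and classical dendritic cells (cDC) held 41, that of CDP and plasmacytoid dendritic cells (pDC) held 45, and that of cDC and pDC held 16. The cells were sorted mouse cells of the strain C57BL/6, and each cell type had 2 H3K27ac libraries. The sources used here give no tissue, culture, age, sex or treatment, and do not say that the libraries of a cell type are of separate animals. The labelled cell types were not checked against marker genes here. The window was chosen from these same values, because a broad block near 3486000 to 3506000 was known to differ in 2 of the lists, so the locus is described and no test is attached to it. With 2 libraries against 2, the smallest p of a two-sided exact permutation test would be 0.333.

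Cdk6 is a cyclin-dependent kinase that binds D-type cyclins and phosphorylates the retinoblastoma protein, which releases E2F factors and lets a cell pass from G1 into S phase. The INK4 proteins inhibit it, and its close relative Cdk4 shares its cyclins and its substrate. In blood, Cdk6 is known for its part in the cycling of stem and progenitor cells and for binding chromatin as a cofactor of transcription. MPP and CDP are dividing progenitors, whereas cDC and pDC are the mature cells that arise from CDP. H3K27ac marks active promoters and enhancers.

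The promoter of the gene is shown because it is one kind of place where the mark is read, and the regions at the left end of the window were among the highest at the locus. RefSeq places Cdk6 on the plus strand. The 250 bases before its start (chr5:3343643-3343892, plus strand, GRCm38.p6) are printed with an E-box (CACGTG) and a TATA box (TATAAA) in capitals. This build differs from that of the regions, so the sequence was not placed among them.

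Cdk6 promoter: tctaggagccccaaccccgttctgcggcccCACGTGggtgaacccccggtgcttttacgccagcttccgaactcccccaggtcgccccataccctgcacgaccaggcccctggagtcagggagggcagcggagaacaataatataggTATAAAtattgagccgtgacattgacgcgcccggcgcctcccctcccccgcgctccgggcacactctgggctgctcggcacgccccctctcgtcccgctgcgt

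The sequence is 66.0% G and C, against a median of 52.4% over 32851 promoters of the same length, and holds 22 CpG dinucleotides against a median of 6. The E-box starts 220 bases and the TATA box 103 bases before the gene's start. Searched on both strands, the letters of the E-box occur in 6.02% of all promoters and those of the TATA box in 12.4%. The core bound by PU.1, searched as GAGGAA and present in 23.3% of promoters, was not in this stretch on either strand. Neither was the core bound by RUNX factors, searched as TGTGGT and present in 14.0%. A GC box, searched as GGGCGG and present in 32.7% of promoters, was absent from these letters as well. The same held for a CCAAT box, searched as CCAAT and present in 33.8%. A match is one of letters and not a site.

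The listed signals are whole numbers, scaled per library and separately for each list, so they are compared only within a list, and the depth in reads is unknown. Because the values carry no replicate number, the libraries of a cell type are named by their order in the list, first-listed or second-listed. A ratio is that of the means of 2 libraries. For single regions 1 was added to each mean, and for longer stretches the signals were summed first. Libraries lie apart where both of one cell type are above both of the other. In cells sorted in bulk, fewer cells with the mark and less of the mark per cell cannot be told apart. In the window the second-listed cDC library stood above the first, at 23042 and 13944 in the list with CDP, and the first-listed MPP library stood above the second, at 53847 and 39174.

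**Figure D1:**
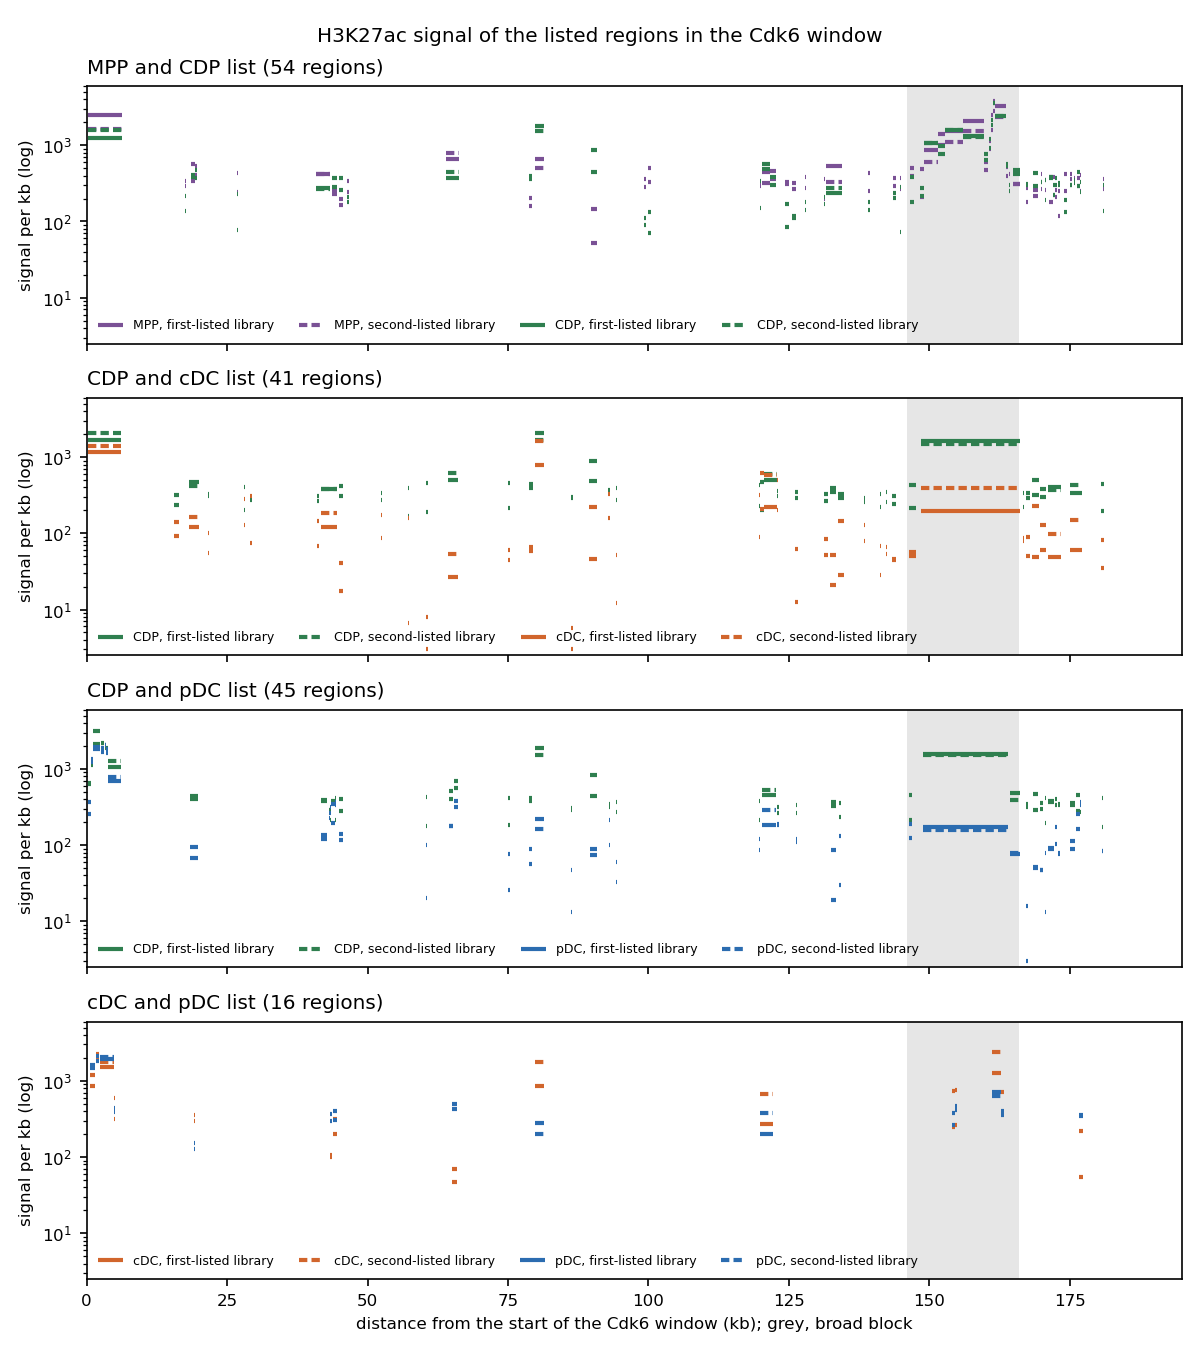
H3K27ac signal per kb (log axis) of each listed region against distance from the start of the Cdk6 window, in kb, with 1 panel per list. Lines span the regions, full lines are first-listed and dashed lines second-listed libraries, values under 3 are drawn at 3, and grey marks the broad block, where CDP lies above cDC and above pDC in each listed region while MPP and CDP cross each other.

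The H3K27ac totals of the progenitors over Cdk6 overlapped, and both mature cell types carried less than CDP. Over the 49.9 kb listed for MPP and CDP, the MPP libraries summed to 53847 and 39174 and the CDP libraries to 40736 and 42237. Both CDP libraries lay between the MPP libraries. The log2 ratio of CDP to MPP was -0.16, and it turned to 0.083 without the first-listed MPP library.

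Over the 55.15 kb listed for CDP and cDC, the CDP libraries summed to 53345 and 53429 and the cDC libraries to 13944 and 23042. CDP was 2.89-fold higher and the libraries lay apart. Over the 43.4 kb listed for CDP and pDC, the CDP libraries summed to 43698 and 44200 and the pDC libraries to 12180 and 12813. CDP was 3.52-fold higher and the libraries lay apart. These lists share the CDP libraries. For cDC and pDC, 13.75 kb of the window were listed, where the cDC libraries summed to 10463 and 16428 and the pDC libraries to 10668 and 11694, which overlap. The log2 ratio of pDC to cDC was -0.27, and 0.096 without the second-listed cDC library. The overlap depended on the scaling. With equal totals over the autosomal regions of the list, the cDC libraries had 14965 and 16701 and the pDC libraries 9606 and 9692. They then lay apart, with cDC 1.64-fold higher.

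Most regions of the window that were listed with a mature cell type were higher in CDP. For CDP and cDC, 39 of the 41 regions favoured CDP and 2 favoured cDC, where the whole list had 57.1% and 42.9%. For CDP and pDC, 40 of 45 were higher in CDP and 5 in pDC, where the list had 49.8% and 50.2%. For MPP and CDP, 35 of 54 were higher in MPP and 19 in CDP, beside 54.3% and 45.7%. For cDC and pDC, 10 of 16 were higher in cDC and 6 in pDC, beside 43.0% and 57.0%.

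Fewer regions had libraries that lie apart. CDP lay above cDC in 35 regions (36.0% of the list) and cDC above CDP in 0 (22.0%). CDP lay above pDC in 38 (37.8%) and pDC above CDP in 0 (39.7%). MPP lay above CDP in 19 (32.2%) and CDP above MPP in 15 (26.8%). cDC lay above pDC in 3 (26.0%) and pDC above cDC in 5 (41.8%).

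A stricter rule further asked that the ratio reach 2 and the authors' −log10 p reach 10. It kept 25 regions higher in CDP than cDC, where it kept 16.2% of that list, and 0 higher in cDC, where it kept 9.10%. It kept 21 regions higher in CDP than pDC (17.7% of the list) and 0 higher in pDC (23.5%). For MPP and CDP it kept 4 in favour of MPP (11.1%) and 2 in favour of CDP (8.49%). For cDC and pDC it kept 2 higher in cDC (11.2%) and 3 higher in pDC (25.3%). The window was chosen from the same contrasts, so nothing is read from these shares.

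Single regions varied widely. Among the 41 regions listed for CDP and cDC, the log2 ratio of cDC to CDP had a median of -1.85, with a range from -5.71 to 0.29, where the whole list had -0.17. That of pDC to CDP for 45 regions was -1.40, with a range from -4.80 to 0.21, beside 0.04 in the list. For CDP to MPP it was -0.21, ranging from -2.01 to 2.72, beside -0.12, and for pDC to cDC it was -0.18, ranging from -2.45 to 2.94, beside 0.20.

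The left end of the window carried the largest signal of any stretch outside the block. Its summed signal differed by at most 1.45-fold in each of the 4 lists as deposited. For MPP and CDP it was 1 region of 6.2 kb, from 3340151 to 3346350. The MPP libraries had 15628 and 10157 and the CDP libraries 7842 and 9987, a ratio of 1.45, with the lower MPP library barely above the higher CDP library. For CDP and cDC it was 1 region of 5.85 kb. The CDP libraries had 9701 and 11975 and the cDC libraries 6770 and 8198, again a ratio of 1.45, with the libraries apart.

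In the list of CDP and pDC the same left end was broken into 7 regions. Summed, the CDP libraries had 8117 and 10240 and the pDC libraries 6559 and 7175, a ratio of 1.34. With equal totals over the autosomal regions of the list, CDP was 1.64-fold higher. Single regions differed more than the sum. From 3340301 to 3340800 the CDP libraries had 315 and 329 and the pDC libraries 127 and 186. The ratio of 2.05 there passed the stricter rule. Of the 5.5 kb listed, 0.5 kb was listed as higher in pDC. For cDC and pDC, 4.1 kb were listed, and the pDC libraries with 7194 and 7890 stood above the cDC libraries with 5802 and 6899, a ratio of 1.19. This last direction depended on the scaling. When the libraries were given equal totals over the autosomal regions of the list, cDC was 1.18-fold higher.

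Between the left end and the block lay smaller elements, and some of these ordered the cell types in ways that the total did not show. At 3404051 to 3406250, the MPP libraries had 1446 and 1766 and the CDP libraries 822 and 991, a ratio of 1.77. The CDP libraries had 934 and 1136 there in the list with cDC, whose libraries had 49 and 100, a ratio of 13.9. The list with pDC had 346 and 393 in pDC where CDP had 687 and 862, a ratio of 2.10. In the list of the mature cell types, the 0.85 kb from 3405101 to 3405950 had 40 and 60 in cDC and 360 and 423 in pDC. Its ratio of 7.70 was the largest in favour of pDC in the window, and the libraries lay apart in all 4 lists.

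The element at 3418701 to 3421400 showed another order, with CDP above each other cell type and pDC below cDC. No list compares MPP with cDC or pDC. The MPP libraries had 1110 and 898 and the CDP libraries 2992 and 2593, a ratio of 2.78 in favour of CDP. In cDC the libraries had 1331 and 2736 where CDP had 3740 and 3027, so the second-listed cDC library came close to CDP. In pDC the libraries had 407 and 291 where CDP had 3249 and 2674, a ratio of 8.49. For the mature cell types, the 1.5 kb from 3419901 to 3421400 had 414 and 301 in pDC and 1274 and 2633 in cDC. Its ratio of 5.45 was the largest in favour of cDC outside the block. This element and the one at 3404051 differed in opposite ways between cDC and pDC.

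Further right, the element from 3429451 to 3430850 was higher in CDP than in each of the other 3 cell types. From 3429751 to 3430800 the MPP libraries had 153 and 55 and the CDP libraries 909 and 471. The ratio of 6.58 was the largest in favour of CDP in that list's part of the window. In the list with cDC the CDP libraries had 1264 and 671 and the cDC libraries 64 and 306, a ratio of 5.23. In the list with pDC the CDP libraries had 1076 and 578 and the pDC libraries 98 and 116, a ratio of 7.73. The CDP libraries differed from each other, yet both stood above the libraries of each other cell type. No region of the cDC and pDC list lay here, which does not show that their signals were equal.

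Right of it, MPP lay above CDP in 6 elements, with ratios of 1.6 to 3.71, and 3 of them are described here. The first holds the largest ratio in favour of MPP, and the others were chosen after their values were seen. At 3439151 to 3440450 the MPP libraries had 347 and 288 and the CDP libraries 66 and 105, a ratio of 3.71, and the other 3 lists had no region. Within it, the 0.5 kb from 3439951 to 3440450 had 249 and 163 in MPP and 35 and 66 in CDP, and its ratio of 4.02 was the largest in favour of MPP in the window. At 3464251 to 3466550 the MPP libraries had 458 and 408 and the CDP libraries 140 and 201, a ratio of 2.54. The region listed with cDC, from 3466151 to 3466550, lies almost wholly to the right of the MPP and CDP regions of this element, so the lists give no order of the cell types here. It had 115 and 138 in CDP and 5 and 25 in cDC. At 3471251 to 3474750 the signal of MPP was 1.68 times that of CDP, and that of CDP was 5.41 times that of cDC and 5.39 times that of pDC, with the libraries apart in each list.

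The element from 3459701 to 3463200 was not separated between CDP and cDC. The CDP libraries had 1640 and 1715 and the cDC libraries 723 and 1941. Of its 4 regions in that list 2 were listed as higher in cDC, the only ones in the window, with ratios of 1.22 and 1.05 and overlapping libraries. In the list with pDC the CDP libraries had 1246 and 1435 and the pDC libraries 525 and 789, a ratio of 2.04, with the libraries apart.

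Short regions of low signal held the lowest values in the mature cells. From 3426151 to 3426500 the CDP libraries had 103 and 105 and the cDC libraries 0 and 2. From 3507301 to 3507550, just right of the block, the CDP libraries had 86 and 79 and the pDC libraries 0 and 4. These had the largest ratios outside the block in their lists, but at values this close to 0 the size of a ratio depends on the constant added.

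**Figure D2:**
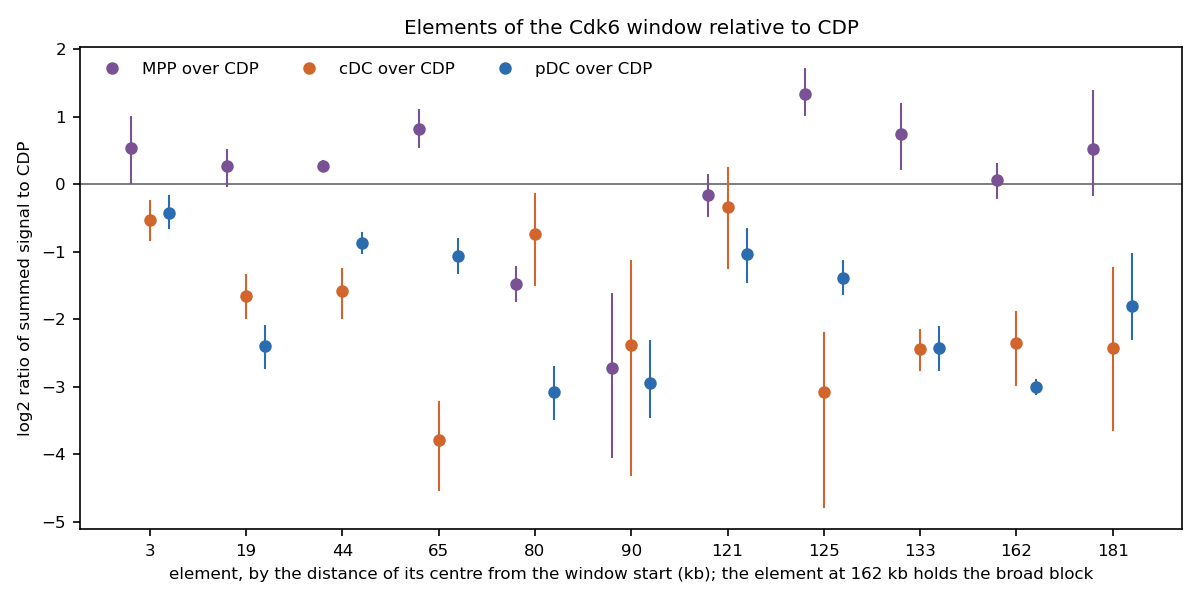
Log2 ratio of summed signal of MPP, cDC and pDC to CDP (vertical axis) at the 11 elements that have a region in each of the 3 lists with CDP and no library at 0, evenly spaced and labelled by the distance of their centre from the window start in kb. Points are ratios of group means and lines span the 4 ratios of single libraries; each point of pDC and cDC lies below 0, and MPP lies below 0 at the elements at 80, 90 and 121 kb only. At 125 kb the regions listed for MPP and CDP barely overlap those of the other lists, so the points there give no order of the cell types.

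Joining the regions of the 4 lists where they were less than 1 kb apart gave 26 such elements. The stretch that an element covers differs between lists. Of the 16 elements with regions in both lists of CDP and a mature cell type, both CDP libraries stood above those of cDC and of pDC in 15. Joined in the same way, 31.0% of such elements in the whole lists did so. Of the 23 elements with a region in either list, the libraries of cDC or of pDC stood above those of CDP in 0, beside 51.0%. Of the 16 elements with a region in the list of MPP and CDP, MPP stood above CDP in 10 (40.1% in the whole list), CDP above MPP in 2 (25.8%), and the libraries overlapped in 4. Both elements with CDP above MPP, those at 3418701 and 3429451, had CDP above cDC and above pDC as well. They were 2 of the 11 elements with a region in each of the 3 lists with CDP, beside 11.5% of such elements in the whole lists. In 5 of the 11 MPP stood above CDP and CDP above both mature cell types, beside 11.3%. That count includes the element at 3464251, whose regions barely overlap between the lists and give no order of the cell types. It also includes the element at 3380751, where 2.95 kb was listed as higher in MPP and 1.45 kb as higher in CDP. With equal totals the MPP and CDP libraries overlapped at that element. The window was chosen from these contrasts, so nothing is read from the difference to the whole lists. With equal totals the 15 remained 15 in number, while MPP stood above CDP in 8 and CDP above MPP in 3. The elements share the same libraries and are not replicates.

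The broad block held 50.8% to 57.1% of the signal that each CDP library had in the window, and was several-fold lower in both mature cell types. For CDP and cDC it was 2 regions that cover 18.85 kb. The CDP libraries summed to 28632 and 27150 and the cDC libraries to 3575 and 7029, a ratio of 5.26. Its main region, from 3488501 to 3506150, was 17.65 kb long, the second longest of the 76865 in the list, and the authors gave it a −log10 p of 3572.7. For CDP and pDC the block was 3 regions that cover 17.35 kb. The CDP libraries summed to 24952 and 23790 and the pDC libraries to 2804 and 2620, a ratio of 8.99. Its main region, from 3488901 to 3504100, was 15.2 kb long and ranked 9 by length among 69958, with a −log10 p of 4239.5. The choice of the locus rests on these values.

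Outside the block CDP was again higher, by smaller ratios. It was 1.93-fold higher than cDC over 36.3 kb and 2.00-fold higher than pDC over 26.05 kb. With the left end set aside as well, the ratios were 2.57 and 3.56, and the libraries lay apart. To the right of the block, the CDP libraries summed to 2945 and 3055 and the cDC libraries to 434 and 1086, a ratio of 3.95. There the list with pDC had 2073 and 2096 for CDP and 653 and 521 for pDC, a ratio of 3.55. A single region right of the block was listed for cDC and pDC, from 3516601 to 3517300, with 38 and 155 in cDC and 252 and 240 in pDC.

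The share of a library's own signal is not changed by any scaling of that library. In the list of CDP and cDC, the block held 53.7% and 50.8% of the window's signal in the CDP libraries and 25.6% and 30.5% in the cDC libraries. The left end held 18.2% and 22.4% in CDP and 48.6% and 35.6% in cDC. In the list of CDP and pDC, the block held 57.1% and 53.8% in CDP and 23.0% and 20.4% in pDC, and the left end held 18.6% and 23.2% in CDP and 53.9% and 56.0% in pDC. In the list of MPP and CDP, the block held 50.9% and 50.8% in MPP and 55.6% and 52.1% in CDP, and the left end 29.0% and 25.9% in MPP and 19.3% and 23.6% in CDP. Per kb, the block carried 0.916 and 0.704 times the signal of the left end in the CDP libraries and 0.164 and 0.266 times in the cDC libraries of the same list. In the pDC libraries, in the list with CDP, it carried 0.136 and 0.116 times.

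**Figure D3:**
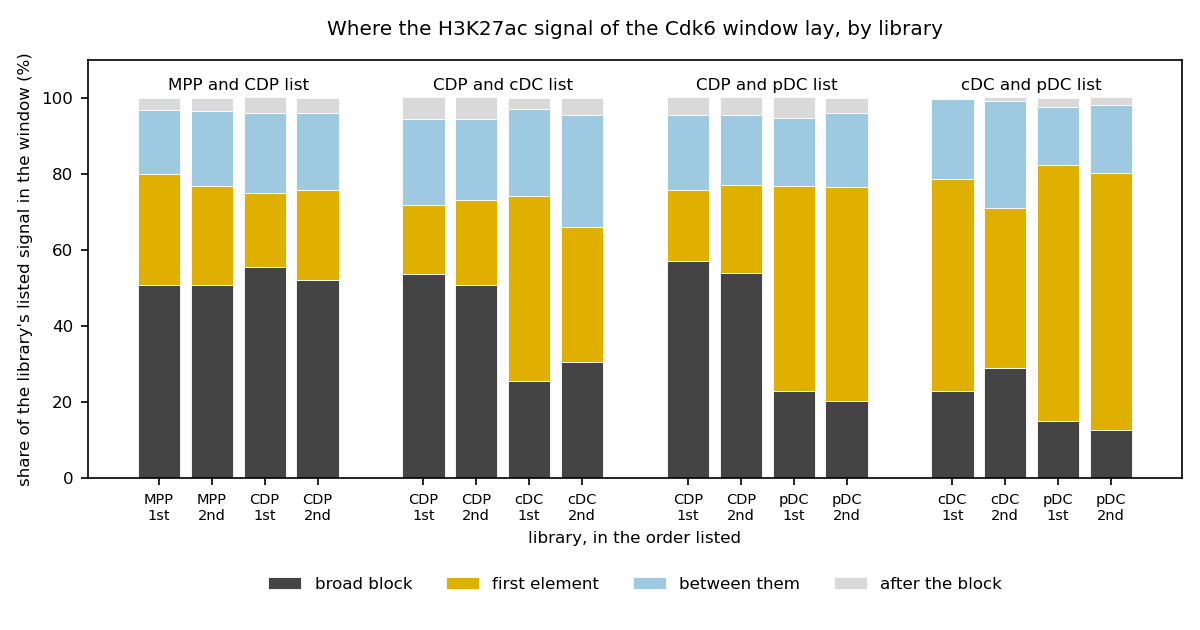
Share (%) of each library's listed H3K27ac signal in the Cdk6 window that lay in the broad block, in the first element at the left end of the window, between them and after the block, by library and list. In the lists with CDP the block holds 50.8% to 57.1% in the MPP and CDP libraries and 20.4% to 30.5% in the cDC and pDC libraries. In the list of cDC and pDC, where only 2.85 kb of the block were listed, it holds 12.7% to 29.0%. The first element is the largest part in every cDC and pDC bar.

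For MPP and CDP the block was divided into 14 regions, 7 in each direction, and its total did not separate these cell types. Over 17.55 kb the MPP libraries summed to 27417 and 19883 and the CDP libraries to 22660 and 21998. The log2 ratio of CDP to MPP was -0.083, turning to 0.167 without the first-listed MPP library and to 0.071 with equal totals. No region of the 14 passed the stricter rule, and the libraries lay apart in 3 that were higher in MPP and 5 that were higher in CDP. The longest of them, from 3496051 to 3499800, had 7826 and 5859 in MPP where CDP had 4948 and 4780, a ratio of 1.41. The direction changed several times along the block. Regions that touch each other there always had opposite directions, so the changes may only show where the list was cut, and nothing is read from them. Some were small, with a ratio as low as 1.03 and overlapping libraries. The leftmost region, from 3486551 to 3487200, had 323 and 254 in MPP and 118 and 248 in CDP. From 3489101 to 3491500 the CDP libraries had 2611 and 2574 and the MPP libraries 2063 and 1441, a ratio of 1.48.

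These 14 regions also show the shape of the block in the progenitors. Left of a dip there was a broad rise. From 3492851 to 3496050 the MPP libraries had 1558.8 and 1098.8 per kb and the CDP libraries 1570.3 and 1573.1 per kb. From 3496051 to 3499800 the MPP libraries had 2086.9 and 1562.4 per kb and the CDP libraries 1319.5 and 1274.7 per kb. Both MPP libraries thus stood higher in the right-hand region of the rise, and both CDP libraries in the left-hand one. The listed direction changes at the bound between these regions, so the contrast may partly follow from where the list was cut. From 3499801 to 3500550 the signal dipped to 598.7 and 477.3 per kb in MPP and to 774.7 and 640.0 per kb in CDP. A higher stretch followed. Its crest lay from 3501401 to 3501750, with 3851.4 and 2822.9 per kb in MPP and 3602.9 and 3540.0 per kb in CDP. The adjoining region to its right, from 3501751 to 3503650, still had 3253.2 and 2323.7 per kb in MPP and 2400.0 and 2426.3 per kb in CDP. The high stretch was thus wider than the crest as listed. In the same list the left end of the window had 1264.8 and 1610.8 per kb in CDP. That is a mean over 6.2 kb, whereas the crest spans 0.35 kb, so the 2 heights are not comparable. The list with pDC cuts the left end finer, and CDP had 2149.3 and 3106.4 per kb there from 3341051 to 3342450.

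For cDC and pDC only 2.85 kb of the block were listed, in 4 regions, each of them higher in cDC. The region from 3501201 to 3502800, which overlaps the crest, had 1138 and 1012 in pDC and 2032 and 3852 in cDC. Its libraries lay apart with a ratio of 2.74, and it alone of the 4 passed the stricter rule. The other 3 had ratios of 1.17 to 1.51 and overlapping libraries. From 3494051 to 3494500, for example, the cDC libraries had 110 and 327 and the pDC libraries 119 and 170. The right-hand region of the broad rise, from 3496051 to 3499800, had no region in this list, which does not show that the signals were equal there.

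**Figure D4:**
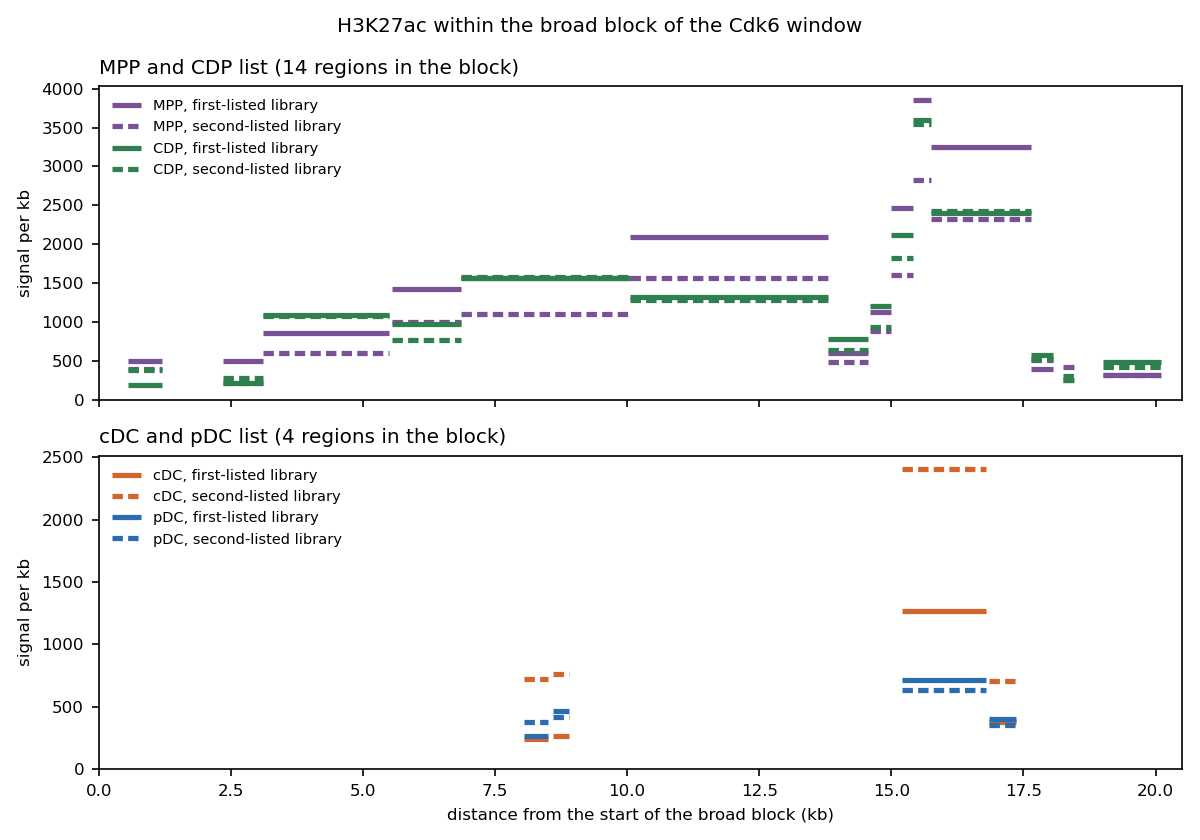
H3K27ac signal per kb of each listed region in the broad block against distance from the block's start, in kb. The upper panel shows MPP and CDP (14 regions) and the lower panel cDC and pDC (4 regions). Full lines are first-listed and dashed lines second-listed libraries. The panels have separate scales because signals are compared only within a list. MPP and CDP form a broad rise, a dip and a higher stretch whose crest has up to 3851.4 per kb. The cDC and pDC region that overlaps the crest lies at 1270.0 and 2407.5 in cDC and 711.2 and 632.5 in pDC.

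The regions nearest to the edges of the window give its surroundings. In the list of CDP and cDC, the last region before it, from 3300301 to 3301650, had 1185 and 941 in CDP and 129 and 174 in cDC. The last region inside it, from 3520651 to 3521050, had 78 and 175 in CDP and 14 and 33 in cDC. The first region beyond it, from 3538601 to 3540150, had 832 and 603 in CDP and 67 and 198 in cDC. In stretches as long as the window on either side, CDP was 4.01-fold higher than cDC to the left, with the libraries apart, and 1.29-fold higher to the right, where they overlap. To the left CDP was 1.87-fold higher than pDC. To the right the order turned, with 22027 and 22516 in pDC where CDP had 11577 and 14419, so the lower signal of pDC did not extend over the right-hand neighbourhood as a whole.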

How the data were processed

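Chromatin of sorted MPP, CDP, cDC and pDC was precipitated for H3K27ac and sequenced, with 2 libraries each. Input libraries (4) and RNA samples (4) were left out. BWA 0.6.1 and mm9 are named in the submitters' processing notes, and THOR, which calls differential peaks from replicates, in the title of the series. The deposited lists give, per region, a direction, the signals of 2 libraries of each cell type and −log10 of a p-value, which are the authors' own. How they scaled the signals, and whether they corrected the p-values, is not given in the sources used here. The labels' protocol and antibody field name different suppliers of the antibody.

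Values were assigned to cell types by the order in the list names. Where 2 lists hold a region of identical bounds, values of the same cell type and place differed by a constant factor, with an SD of up to 0.0595 (log2) in 10 pairs. In the 86 remaining pairings this SD was 0.524 or more. MPP occurs in 1 list, so no second list checks its values. The last 2 values of that list matched those of CDP, so the first 2 fall to MPP by the list's name.

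The window and the stricter rule were chosen with earlier results of these data known. A region entered the window by any overlap and the block by its midpoint. Regions named outside the block are the longest, the one with the highest mean of its higher cell type and those with the largest ratio in each direction, followed through the other lists as elements. The other elements were picked after their values were seen, as were the joining into elements and the shares. Without an annotation of mm9, exons, introns, marker genes and other genes of the pathway were not analysed here. The promoter is that of RefSeq (1 match for Cdk6), and its motifs were chosen with the sequence known. The ratios and the stricter rule were tested on simulated data in which every region had the same high −log10 p, so that threshold was not tested. The simulated libraries also varied less than the summed cDC libraries of the window. Positions are 1-based. Tools were Python 3.11.15 with pandas 2.3.3, numpy 2.4.6 and matplotlib 3.10.9.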

Additional observations from a re-analysis of the deposited data

How the results depend on the processing

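No paired analysis was possible because the deposited values carry no replicate number. Of 188 alternatives tried on 20 results, 165 kept the direction and moved by less than the spread between libraries (for counts, by at most 1.5 times). All 47 for CDP and cDC were among them. These numbers say little about stability, because the spread is that of the same libraries that were left out in turn. In the block, log2 ratios of cDC to CDP of -2.96 and -1.99 were counted as kept, at a spread of 0.692. For CDP and pDC the spread there was 0.085. Taking regions by midpoint for the window, or by any overlap for the block, changed no value.

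Log2 ratios below are of the second-named to the first-named cell type. With equal autosomal totals, CDP to MPP in the block turned from -0.083 to 0.071. For pDC to CDP the same setting gave -2.12 in the window, -3.47 in the block, -1.30 outside it and -1.69 for the median region, beside -1.81, -3.17, -1.001 and -1.40 as deposited, and for pDC to cDC outside the block -0.49 beside -0.032. For pDC to CDP, regions of at least 500 bp gave -1.96 in the window, a −log10 p of at least 10 gave -2.11 in the window and -1.25 outside the block, and the median over covered bases was -2.47. The stricter rule kept 6 regions between MPP and CDP, 3 with a ratio of at least 3, 11 with a −log10 p of at least 5 and 3 with one of at least 20. Between cDC and pDC it kept 5, and 3 with a ratio of at least 3 or a −log10 p of at least 20.

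Leaving out each library in turn gave -0.38 to 0.083 in the window, -0.30 to 0.17 in the block and -0.41 to 0.059 for the median region for CDP to MPP, where leaving out the first-listed MPP library gave the positive value each time. For pDC to cDC it gave -0.56 to 0.096 in the window, -0.28 to 0.26 outside the block and -0.66 to 0.38 for the median region; the highest values came without the second-listed cDC library, and outside the block the value was also positive, 0.05, without the first-listed pDC library. For pDC to CDP the median region ran from -1.68 to -1.17. The block ran from -2.96 to -1.99 for cDC to CDP and from -3.22 to -3.12 for pDC to CDP. The causes were not tested. The depth behind the signals is unknown, so low regions carry a counting error that is not given.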
